A study of Mus musculus with 4 samples.

Results

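The genes described here are 10 markers of resident Kupffer cells, the macrophages that live in the liver sinusoids: Clec4f, Vsig4, Timd4, Cd5l, Marco, Cd163, Adgre1, Csf1r, Msr1 and Folr2. They were taken by symbol from the 24346 gene symbols listed for each library, and all 10 were listed. Expression was measured by RNA sequencing of whole liver from male ob/ob mice, which lack leptin and become obese, which were 6 weeks old when the 4 weeks of feeding began. The mice received a chow diet (CD), CD with 0.01% 7-ketocholesterol (CD+7KC), a high fat western type diet (WD) or WD with 0.01% 7-ketocholesterol (WD+7KC), and cholesterol made up 1% of each of these diets, the controls included. 7-Ketocholesterol (7KC) is a cholesterol oxidised at the carbon next to its ring double bond, found in food and in atherosclerotic plaques. Each group had 1 library, so no difference given here has a replicate check, and whether a library held the RNA of 1 mouse or of several is not given in the sources used here. All the mice were ob/ob, so the values describe livers without leptin.

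Kupffer cells arise mainly from embryonic precursors, renew themselves in the liver and clear bacteria, dying cells, senescent red cells and modified lipoproteins from portal blood. Their identity depends on signals from sinusoidal endothelial cells, stellate cells and hepatocytes and on transcription factors such as PU.1, MAF family members, ID3 and LXRα. In fatty liver disease, resident Kupffer cells can be lost and replaced by macrophages that derive from blood monocytes, which carry general macrophage genes before they acquire the resident markers. Of the members, Clec4f, Vsig4 and Timd4 are regarded as markers of the resident cell, whereas Adgre1, Csf1r and Msr1 are also expressed by other macrophages and, for Csf1r, by monocytes. In whole liver RNA, more Kupffer cells and more marker RNA per cell cannot be told apart.

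Promoter windows, from 250 bases before to 50 bases after a transcription start, were available in the RefSeq table (GRCm38.p6) for 7 of the 10 members, with a second window for Folr2. The windows of 5 members are shown because these genes represent the surface receptors, the secreted protein and the gene with the most different diet pattern described below. The motif TGCTGA, the half-site bound by MAF family factors, is in capitals on either strand (TCAGCA on the other), a display chosen after the matches were seen, and it was searched together with GAGGAA, the core of PU.1 sites, and CACGTG, an E-box.
Clec4f (chr6:83656067-83656366, minus strand): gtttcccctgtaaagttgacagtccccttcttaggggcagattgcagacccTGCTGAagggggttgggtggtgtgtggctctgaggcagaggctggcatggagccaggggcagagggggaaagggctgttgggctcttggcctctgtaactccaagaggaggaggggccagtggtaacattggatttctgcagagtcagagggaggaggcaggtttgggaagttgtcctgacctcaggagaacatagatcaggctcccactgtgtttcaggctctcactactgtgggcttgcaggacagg
Vsig4 (chrX:96293389-96293688, minus strand): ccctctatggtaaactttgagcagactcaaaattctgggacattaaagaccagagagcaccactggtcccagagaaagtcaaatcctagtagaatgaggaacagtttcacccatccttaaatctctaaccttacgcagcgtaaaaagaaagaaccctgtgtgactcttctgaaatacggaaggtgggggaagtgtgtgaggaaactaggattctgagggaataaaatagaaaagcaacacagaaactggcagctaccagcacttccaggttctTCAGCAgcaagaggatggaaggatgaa
Timd4 (chr11:46810549-46810848, plus strand): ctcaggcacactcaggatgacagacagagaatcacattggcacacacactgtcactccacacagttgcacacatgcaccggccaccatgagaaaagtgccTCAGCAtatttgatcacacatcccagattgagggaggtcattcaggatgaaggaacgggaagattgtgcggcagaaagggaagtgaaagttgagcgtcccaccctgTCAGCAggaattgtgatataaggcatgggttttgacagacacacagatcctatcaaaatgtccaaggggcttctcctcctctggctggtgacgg
Cd5l (chr3:87357631-87357930, plus strand): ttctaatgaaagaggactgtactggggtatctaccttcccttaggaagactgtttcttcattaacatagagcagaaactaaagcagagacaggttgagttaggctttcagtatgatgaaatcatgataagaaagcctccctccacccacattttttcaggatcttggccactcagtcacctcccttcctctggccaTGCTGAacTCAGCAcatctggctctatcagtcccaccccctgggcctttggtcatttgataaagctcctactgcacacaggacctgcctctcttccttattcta
Cd163 (chr6:124304401-124304700, plus strand): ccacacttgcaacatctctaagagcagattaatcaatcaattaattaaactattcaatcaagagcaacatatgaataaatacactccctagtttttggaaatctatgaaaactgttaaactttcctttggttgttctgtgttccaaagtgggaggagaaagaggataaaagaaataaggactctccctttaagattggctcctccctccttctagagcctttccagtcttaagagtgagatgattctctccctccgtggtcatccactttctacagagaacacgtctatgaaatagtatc
The MAF half-site was found in 6 of the 8 member windows, which belong to 5 of the 7 members, against 19.5% of all 32851 windows of this length. It stood at -199 in Clec4f, at +24 in Vsig4, at -150 and -44 in Timd4 and at -54 and -46 in Cd5l, counted from the transcription start. In Cd5l the matches faced each other around 2 bases, and this arrangement, TGCTGANNTCAGCA, was looked for only after it had been seen and occurred in 2 of the 32851 windows. The PU.1 core was found in 3 of the 8 member windows, those of Vsig4, Cd5l and Marco, against 28.3% of all windows. The E-box was in 0 of the 8 against 7.15%. The GC content of the member windows ran from 38.0% in Cd163 to 57.3% in Clec4f, with a median of 52.7% over all windows. A match of letters describes the sequence only, and no factor binding was measured in these libraries.

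The authors gave expression as FPKM, fragment counts divided by transcript length and by library depth, so levels can be compared between genes per length. From the steps between low FPKM values, the libraries held an estimated 9.41 (WD) to 12.1 (WD+7KC) times 1e6 mapped fragments. The members rested on an estimated 19.3 reads (Marco in CD) to 3846 reads (Cd5l in WD+7KC) per library. Intervals given below are exact 95% intervals of this read counting, and they do not cover the variation between mice. FPKM values summed to between 602059 (WD+7KC) and 715605 (CD). Rescaling to equal sums moved the median log2 ratio of all genes from 0.002 to 0.21 in WD+7KC relative to WD, and from 0.003 to 0.20 in WD+7KC relative to CD+7KC.

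All 10 members were detected in all 4 libraries. In the GENCODE vM21 annotation of GRCm38 (the mm10 build of the authors), the genes of the resident-cell receptors are Clec4f at chr6:83644542-83656187 (minus strand), Vsig4 at chrX:96247203-96293438 (minus strand) and Timd4 at chr11:46810800-46844332 (plus strand). The next members are Cd5l at chr3:87357881-87371073 (plus strand), Marco at chr1:120474538-120505024 (minus strand), Cd163 at chr6:124304656-124330527 (plus strand) and Adgre1 at chr17:57358691-57483527 (plus strand). The remaining genes are Csf1r at chr18:61100598-61132149 (plus strand), Msr1 at chr8:39581685-39642673 (minus strand) and Folr2 at chr7:101839988-101857194 (minus strand). In the order of their FPKM levels, Cd5l led, followed by Clec4f and then Vsig4 in each library, and neighbours among these did not overlap in their counting intervals. Csf1r, Folr2, Adgre1 and Msr1 followed, and Timd4, Marco and Cd163 had the lowest levels. The counting intervals of Adgre1 and Msr1 overlapped in every library, as did those of neighbours among Timd4, Marco and Cd163. The outer members of that lowest group were nonetheless apart in 3 libraries, with Cd163 above Marco in CD+7KC, Marco above Cd163 in WD and Timd4 above Cd163 in WD+7KC. Of the 10 members, 9 were lowest in CD and 9 were highest in WD+7KC, and Cd163 was the exception in both. CD was below WD, WD below CD+7KC and CD+7KC below WD+7KC for 6 members (Clec4f, Vsig4, Timd4, Adgre1, Msr1 and Folr2), whereas WD was above CD+7KC for Cd5l, Marco and Csf1r.

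**Figure D1:**
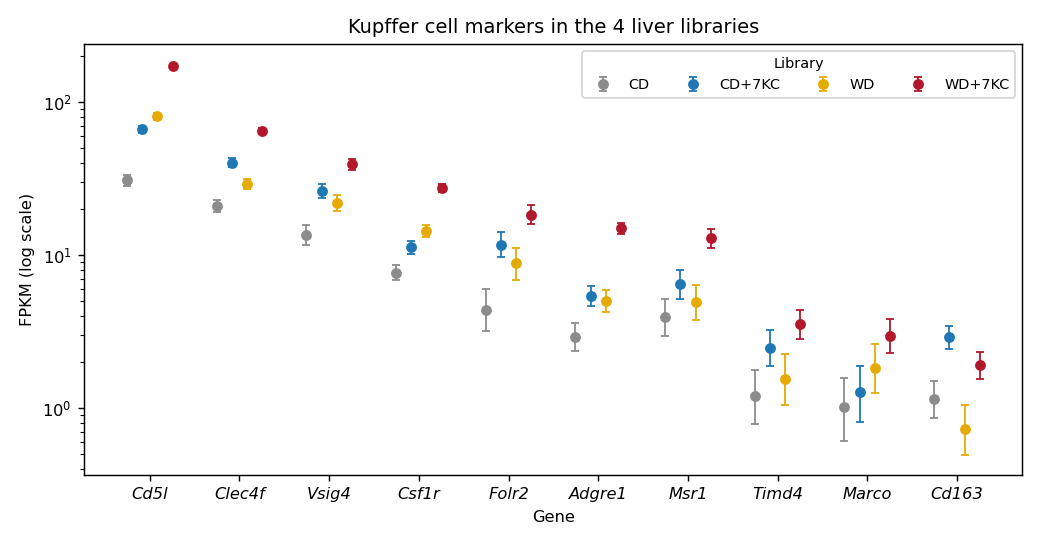
Level of each marker in FPKM (log axis) in the 4 liver libraries, with exact 95% intervals of read counting as bars. The red WD+7KC points are highest for 9 of the 10 genes, and for Cd163 the blue CD+7KC point is highest.

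Clec4f encodes a C-type lectin that binds galactose-type sugars and is found almost only on Kupffer cells. Its level was 20.9 (CD), 40.2 (CD+7KC), 29.2 (WD) and 64.5 FPKM (WD+7KC). Both libraries with 7KC lay above both libraries without it. The ratio was 2.21-fold (95% counting interval 2.01 to 2.42) in WD+7KC relative to WD and 1.92-fold (1.73 to 2.14) in CD+7KC relative to CD. Vsig4, the complement receptor that captures C3b-coated particles from blood, was at 13.5 (CD), 26.2 (CD+7KC), 21.9 (WD) and 39.2 FPKM (WD+7KC). It had the same order of libraries, with a ratio of 1.78-fold (1.54 to 2.08) with 7KC in WD and 1.93-fold (1.61 to 2.33) in CD. Timd4, a phosphatidylserine receptor for the uptake of dying cells that marks long-resident macrophages, was low, at 1.20 (CD), 2.48 (CD+7KC), 1.55 (WD) and 3.54 FPKM (WD+7KC). Its ratio with 7KC was 2.28-fold (1.48 to 3.60) in WD, from an estimated 29 and 85 reads, and 2.07-fold (1.27 to 3.45) in CD, from 26 and 54 reads. The 3 receptors therefore showed ratios of 1.78 to 2.28 with 7KC under both diets, and their intervals excluded 1.

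Cd5l, also called AIM, encodes a protein that macrophages secrete into blood, and it had the highest level of the members. It was at 30.9 (CD), 66.3 (CD+7KC), 81.1 (WD) and 173 FPKM (WD+7KC). The ratio with 7KC was 2.13-fold (2.01 to 2.27) in WD and 2.15-fold (1.95 to 2.37) in CD, and the ratio of WD to CD was 2.63-fold (2.39 to 2.89) without 7KC and 2.61-fold (2.45 to 2.78) with it. Cd5l was the member with the highest ratio of WD to CD without 7KC. Folr2, the folate receptor beta of tissue macrophages, was at 4.37 (CD), 11.7 (CD+7KC), 8.81 (WD) and 18.4 FPKM (WD+7KC). Its ratio in CD+7KC relative to CD, 2.68-fold (1.85 to 3.89), was the highest of the members in that comparison, and its ratio in WD+7KC relative to WD was 2.09-fold (1.58 to 2.77).

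The scavenger receptors, which take up modified lipoproteins, microbes or haemoglobin, differed among themselves. Msr1, the class A receptor of modified LDL, was at 3.95 (CD), 6.44 (CD+7KC), 4.96 (WD) and 12.9 FPKM (WD+7KC). WD+7KC stood apart from the other libraries, and the ratio with 7KC was 2.60-fold (1.93 to 3.57) in WD and 1.63-fold (1.15 to 2.35) in CD. Marco, a related receptor of bacteria and particles, was at 1.02 (CD), 1.27 (CD+7KC), 1.84 (WD) and 2.95 FPKM (WD+7KC). Its ratio with 7KC was the lowest of the members under either diet, at 1.61-fold (1.02 to 2.57) in WD, while the 1.25-fold ratio in CD (0.661 to 2.43) could not be told from 1 at this depth. Cd163, the receptor that clears haemoglobin bound to haptoglobin, was at 1.14 (CD), 2.91 (CD+7KC), 0.727 (WD) and 1.91 FPKM (WD+7KC). Both CD libraries lay above the WD library of the same 7KC status, which no other member showed. The ratio of Cd163 with 7KC was 2.63-fold (1.70 to 4.09) in WD and 2.54-fold (1.82 to 3.53) in CD. Msr1 and Cd163 have several RefSeq mRNAs, as have Adgre1 and Folr2, and their reads were counted from the shortest, which gives the widest interval.

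Adgre1 encodes F4/80, the surface receptor by which mouse macrophages are commonly stained. It was at 2.92 (CD), 5.41 (CD+7KC), 5.03 (WD) and 14.9 FPKM (WD+7KC). CD+7KC and WD were close to each other, and WD+7KC was the highest by far. The ratio with 7KC was 2.97-fold (2.46 to 3.62) in WD, the highest of the members in that comparison, and 1.85-fold (1.43 to 2.40) in CD. Csf1r, the receptor for the survival factors CSF1 and IL-34, was at 7.68 (CD), 11.2 (CD+7KC), 14.4 (WD) and 27.4 FPKM (WD+7KC). Its ratio with 7KC was 1.91-fold (1.72 to 2.12) in WD and 1.46-fold (1.26 to 1.69) in CD.

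**Figure D2:**
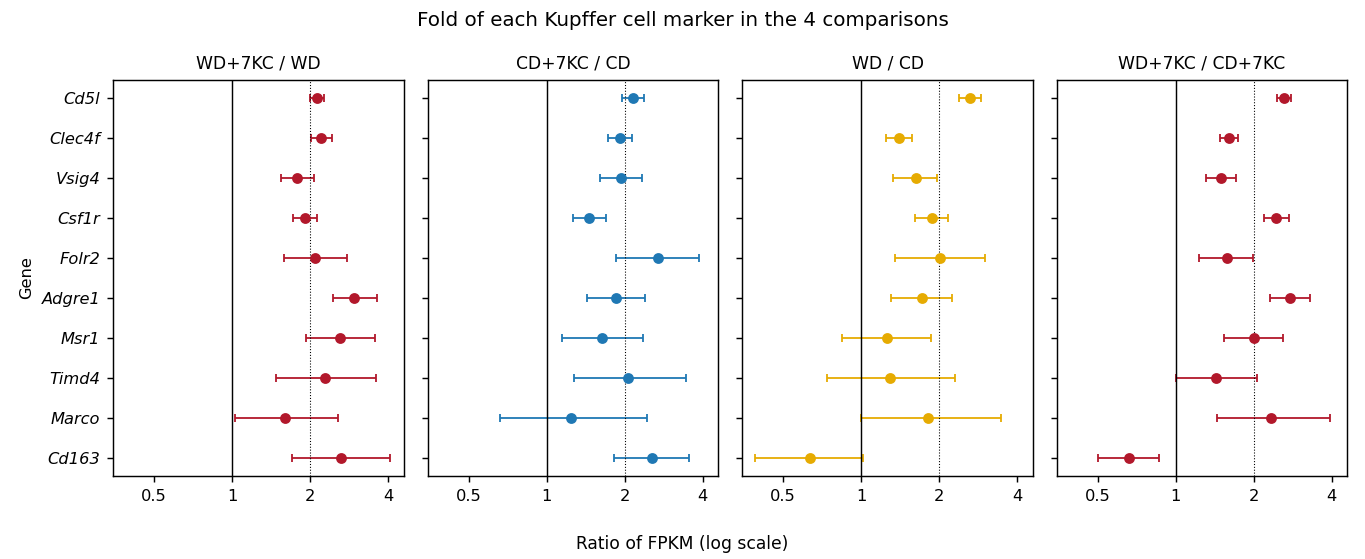
Ratio of FPKM (log axis) of each marker in the 4 comparisons, with exact 95% counting intervals; solid line, equal levels; dotted line, a ratio of 2. All points lie to the right of 1 in both 7KC comparisons, and Cd163 lies to the left of 1 in both diet comparisons.

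For counts of genes, a log2 ratio of FPKM + 0.1 above 1 or below -1 was used, a scale that understates the ratio of low genes. In WD+7KC relative to WD, 10 of 10 members were higher, with a median log2 ratio of 1.12 against 0.002 over all genes. Above 1 were 7 of the 10 (Clec4f, Timd4, Cd5l, Cd163, Adgre1, Msr1 and Folr2), where 6.21% of 15753 genes were above 1 and 2.79% below -1. Csf1r with 0.93, Vsig4 with 0.83 and Marco with 0.65 stayed under it. In CD+7KC relative to CD, 10 of 10 members were higher again, with a median of 0.94 against -0.001 over all genes. Here 3 of the 10 (Cd5l, Cd163 and Folr2) were above 1, where 3.84% of 15684 genes were above 1 and 2.91% below -1, and Timd4 with 0.99, Vsig4 with 0.95 and Clec4f with 0.94 lay just under it. The counting interval of the ratio lay above 1 for 10 members under WD, where it did so for 13.4% of the 14208 genes with a usable transcript length and lay below 1 for 15.2%. Under CD it lay above 1 for 9 members, the exception being Marco, against 10.3% of 14099 genes above 1 and 11.6% below. The directions of the members' log2 ratios held under each scaling and pseudocount tried. The counting intervals of the ratios were not recomputed under them.

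The 7KC comparisons under WD and under CD share no library, so their difference could be formed for each member, with an interval (Wald, log2) for read counting. The log2 ratio with 7KC was larger under WD for Adgre1 by 0.68 (0.23 to 1.13), for Msr1 by 0.67 (0.022 to 1.33) and for Csf1r by 0.39 (0.13 to 0.64). Among 12661 genes with reads in all 4 libraries, this interval lay above 0 for 12.7% and below 0 for 14.4%, so many genes differ by more than read counting. Other macrophages also express Adgre1, Msr1 and Csf1r, and whether this bears on the difference was not tested. For the other 7 members the interval included 0. The difference was -0.010 (-0.17 to 0.15) for Cd5l, 0.20 (-0.004 to 0.40) for Clec4f, -0.12 (-0.45 to 0.22) for Vsig4 and -0.36 for Folr2, with an upper bound of 0.28. The widest intervals, for Marco, Timd4 and Cd163, allowed differences of 0.80 or more in the positive direction. Scaling mattered for this measure. Clec4f had an interval above 0 under all 3 other scalings, with 0.37 (0.17 to 0.58) after rescaling to equal sums, 0.27 (0.064 to 0.47) by upper quartile and 0.22 (0.018 to 0.42) by median ratio, and Cd5l had one after rescaling to equal sums only. A change of scaling shifts this difference equally for every gene. The shares over all genes were not computed under the other scalings, so these added intervals are not particular to the members. Whether mice differ in this way was not tested, since each term rests on 1 library.

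**Figure D3:**
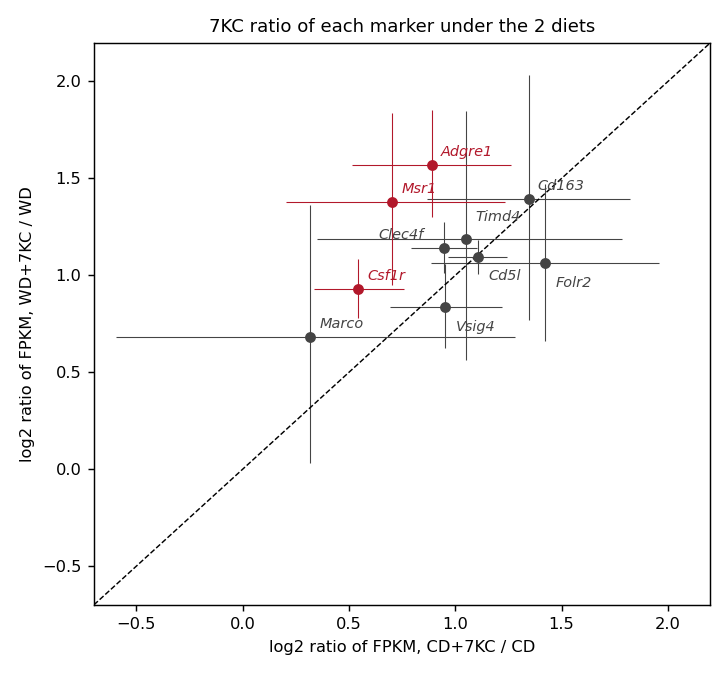
Log2 ratio of FPKM with 7KC under CD (horizontal) and under WD (vertical) for each marker, with exact 95% counting intervals as bars and equality as the dashed line. Adgre1, Msr1 and Csf1r, in red, lie above the line by more than their counting error.

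In the diet comparison without 7KC (WD relative to CD), 9 of 10 members were higher in WD, with a median log2 ratio of 0.73 against 0.010 over all genes. Only Cd5l was above 1, with 1.39, and Folr2 was at 0.995, where 5.31% of 15597 genes were above 1 and 4.38% below -1. The ratio was 1.40-fold (1.24 to 1.57) for Clec4f, 1.62-fold (1.33 to 1.97) for Vsig4, 1.72-fold (1.31 to 2.25) for Adgre1 and 1.87-fold (1.62 to 2.16) for Csf1r. For Timd4, Msr1 and Cd163 the counting interval included 1, and the ratio of Cd163 was 0.636-fold (0.391 to 1.02). Among 14073 genes the interval lay above 1 for 16% and below 1 for 17.3%. With 7KC in both diets (WD+7KC relative to CD+7KC), 9 of 10 were higher and the median was 0.84. Cd5l, Marco, Adgre1 and Csf1r were above 1, where 8.01% of 15898 genes were above 1 and 4.61% below -1, which is 1274 and 733 genes, or 2007 and 719 after rescaling to equal sums. Cd163 was lower, at 0.658-fold (0.501 to 0.860), where the interval lay above 1 for 19.6% of 14292 genes and below 1 for 19.3%.

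The other cell types of the liver were examined with lists of their markers. The list named genes of all myeloid cells is labelled loosely, and each gene need not be expressed by every such cell. Its genes were at a median log2 ratio of 0.89 for 7KC under WD, where 12 of 12 were higher and 4 above 1. They ran from Fcer1g, the Fc receptor gamma chain (0.47), to Ptprc, which encodes CD45 (1.26). In CD+7KC relative to CD, their median was 0.27, with 11 of 12 higher but 0 above 1. Of the Kupffer cell markers, 7 of 10 lay above the highest of these 12 genes (Fcgr1, 0.76) under CD, and 3 of 10 lay above the highest (Ptprc) under WD. Marco, Csf1r and Msr1 were the members not above Fcgr1 under CD. By the same measure under CD, 3 of 10 lay above the highest of the endothelial genes described below (Dnase1l3, 1.06). Under WD, 0 of 10 lay above the highest endothelial gene (Kdr, 1.95). For the further Kupffer cell genes described below, only 2 of 10 members lay above the highest under CD (Fcna, 1.22). Under WD, 3 of 10 did (Slc11a1, 1.23). Monocyte and neutrophil genes (11 of the 12 listed) were at a median of 0.67 for 7KC under WD, where 10 of 11 were higher, and of -0.46 in CD+7KC relative to CD, with 10 of 11 lower. Their extremes in WD+7KC relative to WD were Chil3, a chitinase-like protein of monocytes and neutrophils (1.83), and S100a9 (-0.09). The 10 lymphocyte genes had a summed level of 1.78 to 7.85 FPKM and medians of -0.37 under WD and 0.88 under CD (-0.20 and 0.18 with a pseudocount of 1), from Cd3g (-1.66) upward under WD. Of the lymphocyte markers, Ms4a1 was listed at 0 in CD+7KC.

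Markers of liver sinusoidal endothelial cells, which line the vessels where Kupffer cells sit, were mostly higher with 7KC, as were the Kupffer cell markers. In WD relative to CD, however, most of the endothelial genes went the other way. Of 10 such genes, 10 were above 1 for 7KC under WD, at a median of 1.52, from Pecam1 (1.07) to Kdr, the VEGF receptor 2 (1.95). Their summed level was 80.9 (CD), 118 (CD+7KC), 66.7 (WD) and 188 FPKM (WD+7KC), and none of them was at 0 in a library. The members summed to 87.6, 174, 170 and 359 FPKM in the same libraries. Under CD the endothelial median was 0.41, with 9 of 10 higher and 1 above 1, and in WD relative to CD it was -0.28, with 8 of 10 lower, against 0.73 for the Kupffer cell markers. The endothelial sum was thus lowest in WD and highest in WD+7KC. Hepatocyte genes were lower in 10 of 10 cases for 7KC under WD, at a median of -0.27 (Cps1, -0.13; Cyp2e1, -0.86), and in 8 of 10 under CD, with a median of -0.18. After rescaling to equal sums, 6 of 10 were lower and 4 higher under WD, at a median of -0.056. Stellate cell genes had a median of -0.10 under WD, which became 0.12 after rescaling to equal sums and 0.008 after upper quartile scaling, with values from -0.25 (Des) to 0.22 (Hgf), and of -0.20 under CD. The part that a different share of cell types in the sampled tissue had in the marker ratios was not tested.

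**Figure D4:**
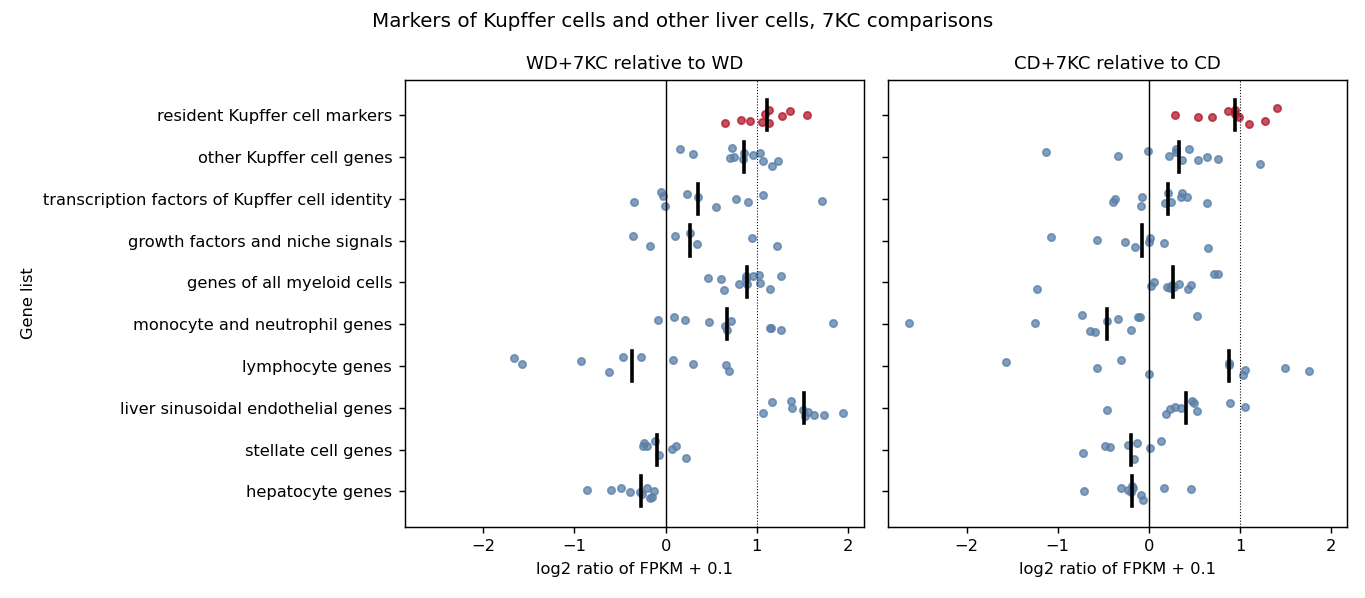
Log2 ratio of FPKM + 0.1 of each gene (points) and the median (black bars) of the Kupffer cell markers and 9 other lists, for 7KC under WD (left) and CD (right). The Kupffer cell markers (red) are all above 0 in both panels, and the endothelial genes have the highest median on the left.

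A ratio to other genes of the same library does not depend on how libraries are scaled. The summed FPKM of the members was set against that of the 12 genes of all myeloid cells. Kupffer cells are themselves myeloid cells, so this is not a share of Kupffer cells among myeloid cells. As a percentage of that sum, the members were at 41.1% (CD), 69.5% (CD+7KC), 51.2% (WD) and 61.7% (WD+7KC). The share was thus 1.69 times as high with 7KC in CD and 1.21 times as high with 7KC in WD. For Clec4f it was 9.80% (CD), 16.0% (CD+7KC), 8.82% (WD) and 11.1% (WD+7KC). Clec4f, Vsig4, Timd4, Cd163, Msr1 and Folr2 were each highest in CD+7KC by this measure. Cd5l (29.8%), Adgre1 (2.57%) and Csf1r (4.71%) were highest in WD+7KC, although Csf1r was close to that in CD+7KC (4.47%). Marco ran from 0.478% to 0.554%. No counting interval was computed for these shares, so small gaps between libraries are not resolved. Cd163 ran from 0.219% in WD to 1.16% in CD+7KC. Relative to the 10 endothelial genes, the members together were 1.36 times as high with 7KC in CD and 0.749 times as high in WD. That sum is mostly Cd5l and Clec4f, and the values of some members differed from it in direction. Adgre1 was at 1.26 in CD and 1.05 in WD, Marco at 0.851 and 0.568, and Csf1r at 0.996 and 0.674. No counting interval was computed for these ratios. The values of 1.05 and 0.996 are close to 1, and Marco in CD rests on an estimated 19 and 24 reads. These departures from the sum are therefore not resolved.

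**Figure D5:**
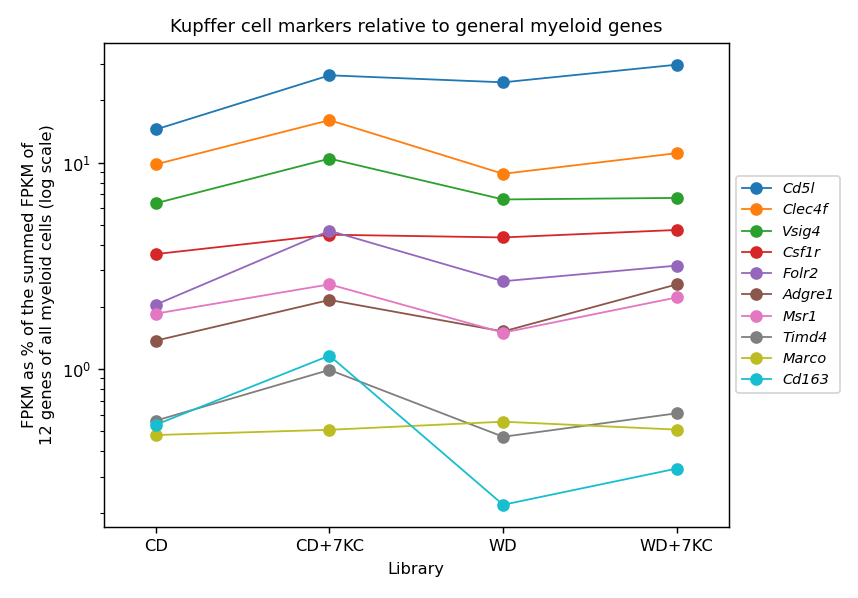
FPKM of each marker as a percentage (log axis) of the summed FPKM of 12 genes of all myeloid cells in the same library; lines join the values of a gene. The share of Clec4f runs from 8.82% in WD to 16.0% in CD+7KC, and that of Cd163 from 0.219% to 1.16%.

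Further genes of Kupffer cells were read from a separate list of 12. WD+7KC exceeded WD for all 12, and their median was 0.86 with 4 above 1, from Slc40a1, the iron exporter ferroportin (0.16), to Slc11a1, a metal transporter of the phagosome (1.23). In CD+7KC relative to CD, 9 of 12 were higher, with a median of 0.33. Fcna, a ficolin of the lectin complement pathway, was at 11.4 (CD), 26.8 (CD+7KC), 13.7 (WD) and 28.1 FPKM (WD+7KC), and its log2 ratio with 7KC was 1.04 under WD and 1.22 under CD. Clec1b, a C-type lectin that binds podoplanin, was at 7.44, 12.7, 11.5 and 20.8 FPKM in the same order. Both libraries with 7KC were again above both without it for these genes, which were picked out after their values had been seen.

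Transcription factors that set Kupffer cell identity had medians nearer 0 than the markers in both 7KC comparisons. Of 11, 7 were higher with 7KC under WD and 2 were above 1, at a median of 0.36, and 7 were higher under CD with 0 above 1 and a median of 0.21. The count under WD depended on the scaling, with 10 of 11 higher after rescaling to equal sums, at a median of 0.57. Tfec, a factor of the MITF family found in macrophages, was at 0.923 (CD), 1.26 (CD+7KC), 0.805 (WD) and 2.87 FPKM (WD+7KC). Several of these factors, such as Nr1h3 (LXRα, 48.4 to 58.0 FPKM), are also expressed by hepatocytes. Signals that sustain Kupffer cells had a median of 0.26 under WD over 7 genes and of -0.08 under CD over 8. Tgfb1, which encodes transforming growth factor beta 1, was at 3.03 (CD), 3.06 (CD+7KC), 3.97 (WD) and 9.38 FPKM (WD+7KC), and Gdf2, which encodes BMP9, was highest in WD with 7.39 FPKM and lowest in CD with 4.99. Csf1, a ligand of CSF1R, was at 2.25, 1.86, 2.94 and 3.55 FPKM, in the order CD, CD+7KC, WD, WD+7KC, and its other ligand Il34 ran from 1.77 (CD) to 2.54 (WD). Csf2 was listed at 0 in CD+7KC, WD and WD+7KC.

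To describe which genes had the profile most like that of the members, centred log2 profiles over the 4 libraries were compared with the median profile of the members, for the 6689 genes averaging 5 FPKM or more. The nearest genes that are not members were Gngt2 (root mean square difference 0.087 on the log2 scale), Clec1b (0.088), Adgre5 (0.091), C1qc (0.12) and Scd2 (0.12). Of the 7 members at this level, Clec4f was nearest (0.076) and Cd5l farthest (0.35), behind 109 other genes. The members themselves make up the median profile, so their own places are partly set in advance. C1qc, a chain of complement C1q, was at 36.5 (CD), 57.0 (CD+7KC), 60.1 (WD) and 117 FPKM (WD+7KC). With 4 points per gene, many profiles can look alike, and likeness here is a description of these libraries only.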

How the data were processed

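The authors sequenced stranded mRNA libraries (single-end) from ob/ob mouse liver, 1 for each of the 4 diets. The authors mapped reads to mm10 with TopHat2 2.0.13, Bowtie2 2.2.3 and SAMtools 0.1.19, computed FPKM with Cufflinks 2.2.1 and deposited 1 FPKM value per gene symbol. The annotation and options of Cufflinks are not given in the sources used here. The members and lists were chosen with earlier results of these data known.

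Log2 ratios used a pseudocount of 0.1, and a gene was counted where either compared library was above 0 FPKM. No p-value was computed. Depth was estimated from 11841 genes with a single RefSeq mRNA (GENCODE vM21 lengths minus 200 bases); 72.1% to 73.0% of values below 8 reads lay within 0.1 of a whole number, where evenly spread values would give 20%. Intervals of FPKM are exact Poisson intervals and those of ratios exact Clopper-Pearson intervals (95%), for read counting only. The named genes were the 10 members, the highest and lowest gene of each other list by the WD+7KC to WD ratio among genes reaching 1 FPKM, genes at 0 in all libraries, and the 5 genes nearest in profile; others were named after their values were seen. An item that this rule names is not reported here. Ly6g of the monocyte and neutrophil list was not analysed here. Alternatives were pseudocounts of 1 and 0.01, equal sums (TPM), upper quartile and median-ratio scaling, a filter of 1 FPKM, and thresholds of 1.5-fold and 4-fold. Code was tested on simulated data. Python 3.11.15, numpy 2.4.6, pandas 2.3.3, scipy 1.17.1 and matplotlib 3.10.9 were used.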

Additional observations from a re-analysis of the deposited data

Results flagged for a closer look

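Medians of the Kupffer cell markers had the same sign under both diets, but those of some other lists did not. With 7KC, the monocyte and neutrophil genes had a median log2 ratio of 0.67 under WD and -0.46 under CD, the lymphocyte genes -0.37 under WD and 0.88 under CD, and the growth factors and niche signals 0.26 under WD and -0.08 under CD. In WD against CD, the monocyte and neutrophil genes had a median of -0.055 without 7KC and 1.33 with it, and the sinusoidal endothelial genes -0.28 without 7KC and 0.80 with it. Each of these signs rests on 1 library per group, and the differences were not tested. The signs held under each scaling and pseudocount tried, an addition made after the values had been seen, but the sizes did not. With a pseudocount of 1, the lymphocyte medians with 7KC were -0.20 under WD and 0.18 under CD, and those of the monocyte and neutrophil genes 0.42 and -0.22. With 0.01, the lymphocyte median under CD was 1.31.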

How the results depend on the processing

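The median log2 ratio of the members ranged over the pseudocounts, scalings and filter from 0.93 to 1.33 in WD+7KC relative to WD, 0.79 to 0.98 in CD+7KC relative to CD, 0.56 to 0.76 in WD relative to CD and 0.73 to 1.05 in WD+7KC relative to CD+7KC. Of 200 values of single members under these settings, 0 reversed and 191 stayed within the counting interval of the value reported. Members above the threshold in WD+7KC relative to WD numbered 4 with a pseudocount of 1. In WD relative to CD they numbered 2 with a pseudocount of 0.01, after rescaling to equal sums and after median-ratio scaling. With a threshold of 1.5-fold, 8 members were above it in CD+7KC relative to CD, 7 in WD+7KC relative to CD+7KC, and 6 above and 1 (Cd163) below in WD relative to CD. With a threshold of 4-fold, 0 members passed in any comparison. Of all genes, 978 were above 1 and 440 below -1 in WD+7KC relative to WD. These counts were 140 and 49 with a pseudocount of 1, 1907 and 923 with 0.01, 1629 and 453 after rescaling to equal sums, and 414 and 107 among genes of at least 1 FPKM. They were 2230 and 1080 past 1.5-fold, and 119 and 71 past 4-fold. In CD+7KC relative to CD, 603 and 456 became 65 and 48, 1375 and 1005 with these pseudocounts, 170 and 117 with the filter, and 1627 and 1115, or 98 and 67, with these thresholds. In WD relative to CD, 828 and 683 became 150 and 137, 1575 and 1354, 330 and 272, 2099 and 1679, or 129 and 133 under the same settings. In WD+7KC relative to CD+7KC, 1274 and 733 became 316 and 225, 2187 and 1395, 692 and 351, 2784 and 1813, or 167 and 146. Depth limits Marco most, with 19 to 62 reads per library. No paired analysis was possible because each group had 1 library.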

Other observations

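Some macrophage-related genes outside the markers had opposite directions with 7KC under the diets, picked out after their values had been seen. Hmox1, the heme oxygenase that degrades heme in Kupffer cells, was at 42.4 (CD), 19.3 (CD+7KC), 19.9 (WD) and 33.1 FPKM (WD+7KC). Cd14, the co-receptor for lipopolysaccharide, was at 4.05, 1.68, 3.05 and 6.37 FPKM in the same order, and Chil3 at 1.36, 0.136, 0.791 and 3.08 FPKM. Each was lower with 7KC in CD and higher with 7KC in WD, unlike the 10 Kupffer cell markers. The Chil3 value in CD+7KC, 0.136 FPKM, was very low, and counting intervals are not given for Hmox1, Cd14 and Chil3. Cd207, the lectin langerin, followed the diet instead, with 2.33 (CD), 2.73 (CD+7KC), 6.69 (WD) and 8.24 FPKM (WD+7KC). Whether these directions hold across mice was not tested.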
